A study of Mus musculus with 10 samples.

Results

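Of the 18193 mouse genes with a probe set of their own on the array, 10 imprinted genes were compared between a pair of fibroblast lines, with every probe set of each gene taken separately. They were Ndn, Phlda2, Peg3, Meg3, Igf2r, Gnas, Plagl1, Impact, Slc38a4 and Peg12, chosen as a list because imprinted genes had been seen to differ between the lines in these same arrays. Of the 34945 probe sets annotated to exactly 1 gene symbol, 41 belonged to these 10 genes, and 27 of the 41 were bright enough to enter the fits. One more probe set, annotated to both Airn and Igf2r, was left out.

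Mouse embryonic fibroblasts (MEF), connective tissue cells grown from embryos, were hybridised to Affymetrix mouse expression arrays, 10 arrays in all. One line carries the genotype label (-/-) and is called an Hsp70 knockout, and the other carries (+/+) and is called a rescue. Hsp70 is the heat-inducible chaperone encoded by Hspa1a and Hspa1b. Each line was either left unheated or preshocked, that is, warmed in a water bath at 43 °C for 30 min after 20 h in culture and lysed 3 h later. The groups were 3 unheated arrays of the knockout-labelled (KO) line (numbered 6, 12 and 14 in the labels), 3 preshocked KO arrays (5, 11 and 13), 2 unheated rescue arrays (32 and 44) and 2 preshocked rescue arrays (31 and 43). All groups were grown and lysed in 96-well plates, and each sample pooled the lysates of 144 wells. The labels give neither strain, age, transgene promoter nor clone number, and they leave open if replicate samples came from different cultures, so each p-value measures only the spread between the samples at hand, which may be technical. Whether the rescue line was made from the knockout line is likewise not given in the labels, so the genotype and the history of each line cannot be told apart.

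Genomic imprinting marks the parental copies of a gene differently, mostly by DNA methylation at CpG dinucleotides laid down in the germ line. The RNA then comes mainly from a single parental copy. Imprinted genes sit in clusters that share control regions, and many of them act on growth of the embryo and placenta. Marks can be lost or gained in cultured cells, and fibroblast lines of different origin often differ in which imprinted genes they express. The arrays measured total RNA of each gene and do not separate the parental copies or read methylation. In RNA from many pooled cells, fewer expressing cells and less RNA per cell cannot be told apart.

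The promoters of the 3 genes whose arrays separated the lines most clearly, Ndn, Phlda2 and Peg3, are shown with their CpG dinucleotides. Each run holds 250 bases before and 50 after the annotated start (RefSeq, GRCm38.p6), 5′ to 3′ on the gene's strand, with every CG in capitals. The Ndn promoter lies at chr7:62348027-62348326 on the + strand, that of Phlda2 at chr7:143502475-143502774 on the - strand, and that of Peg3 at chr7:6730370-6730669 on the - strand.
Ndn: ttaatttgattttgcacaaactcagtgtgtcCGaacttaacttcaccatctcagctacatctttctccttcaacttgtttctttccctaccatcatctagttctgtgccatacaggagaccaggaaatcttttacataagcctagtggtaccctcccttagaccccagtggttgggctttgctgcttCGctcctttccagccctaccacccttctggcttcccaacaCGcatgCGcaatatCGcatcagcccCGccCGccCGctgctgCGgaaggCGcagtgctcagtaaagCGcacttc
Phlda2: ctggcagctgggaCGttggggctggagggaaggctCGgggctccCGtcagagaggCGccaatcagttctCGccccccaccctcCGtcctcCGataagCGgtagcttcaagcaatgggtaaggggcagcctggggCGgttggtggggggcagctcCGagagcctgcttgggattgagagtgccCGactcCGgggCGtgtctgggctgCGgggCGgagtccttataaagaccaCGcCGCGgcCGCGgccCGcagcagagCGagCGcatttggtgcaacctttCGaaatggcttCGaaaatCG
Peg3: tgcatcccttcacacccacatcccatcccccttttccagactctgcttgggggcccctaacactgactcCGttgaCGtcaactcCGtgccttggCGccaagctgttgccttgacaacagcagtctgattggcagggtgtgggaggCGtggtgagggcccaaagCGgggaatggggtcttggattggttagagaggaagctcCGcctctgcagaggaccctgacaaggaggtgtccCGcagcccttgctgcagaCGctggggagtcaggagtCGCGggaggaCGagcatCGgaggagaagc
The letters CG read the same on both strands and cannot overlap one another. The Ndn window held 11 of them, and 41.4% of the 32851 promoters in the RefSeq table held at least as many. The Phlda2 window held 26, a count reached by 16.9% of promoters, and the Peg3 window held 13, a count reached by 37.9%. The median promoter held 7. Of the 15 promoters listed for 9 of the 10 genes, 11 reached that median, from 40 in one Gnas promoter and 34 in Igf2r down to 5 in each of 3 Slc38a4 promoters and 1 in one Meg3 promoter. Ndn and Peg3 had CpG counts near each other in these windows. Whether the windows carry imprinting marks was not measured, and the part of methylation in the line differences was not tested.

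The KO label was checked on the targeted genes first. Probe set 1427126_at of Hspa1b had deposited intensities of 63.2 to 106 in unheated KO arrays and 16853 to 29562 in preshocked KO arrays, against 196 and 262 rising to 36889 and 29210 in the rescue line. Hspa1b RNA thus rose after preshock in the line labelled a knockout as well. Such a probe set checks the label only if it lies in the deleted part, which the labels do not describe. The single probe set of Hspa1a lay near the lower end in all 10 arrays (3.49 to 25.8). The 11 fibroblast markers found on the array, of 12 listed, were all above the level filter and summed to 90260 to 103100 in KO arrays and 87440 to 102000 in rescue arrays, on the linear scale. The 3 pluripotency markers, Pou5f1, Nanog and Zfp42, were all below the filter. Arrays 5 and 6 stood apart from the rest, with median intensities of 100.39 and 107.02 against 50.704 to 73.735, so results are also given without that pair where it matters. The 3′ and middle 18S rRNA control probe sets were lower in every rescue array, by 2.14 and 2.04 log2 units in the mean. The 5′ one was lower by 1.29 in the mean but overlapped (9.57 to 11.16 in KO and 7.37 to 10.62 in rescue). The 3′ to 5′ log2 ratio of Gapdh was alike (-0.32 to -0.21 in KO and -0.36 to -0.22 in rescue). The part of rRNA carry-over in the line differences was not tested.

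Values below are log2 intensities after quantile normalization, which gives every array the same distribution, and line differences are rescue minus KO. A probe set was fitted when its mean over the 10 arrays was at least 4.97, which kept the upper 60% (27022 of 45037). A probe set that was bright in only one line passed through that line, so counts over the 27 describe and do not support. Because the genes were chosen on the line contrast, their line differences are given with standard errors (SE) and no test.

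Among the 27 fitted probe sets, the 4 rescue arrays and the 6 KO arrays did not overlap in 11. Of these 8 were lower in rescue, namely all 5 of Ndn, that of Phlda2, 1426758_s_at of Meg3 and 1428111_at of Slc38a4, and 3 were higher, namely both of Peg3 and 1450186_s_at of Gnas. Under the deposited scaling the count was 10, with 9 lower and 1 higher, because 1417355_at of Peg3 and 1450186_s_at of Gnas overlapped and 1453413_at of Gnas parted. Over all 27022 probe sets, 3.98% had every rescue array below every KO array and 4.61% had every rescue array above. For the whole table, 20 probe sets (0.074%) were called at an adjusted p under 0.05 between the unheated lines and 17 (0.0629%) between the preshocked lines, by limma's moderated test with Benjamini-Hochberg adjustment. Of these calls 4 and 3 were higher in rescue, against 1 of 34 and 0 of 17 under the deposited scaling. The median line difference of the 27 was -0.31 in unheated arrays, with 10 above 0 and 17 below, and -0.18 in preshocked arrays, beside 0.03 in each state over all probe sets. Centring each array on its median instead raised the median over all probe sets by 0.44 unheated and 0.36 preshocked, so differences of that size have no settled sign. No probe set of Igf2r, Plagl1, Impact or Peg12 among those fitted separated the lines, so by this measure 6 of the 10 genes did and 4 did not. Without arrays 5 and 6 the count of probe sets was 13, with 9 lower and 4 higher, since 1415911_at of Impact (higher) and 1448889_at of Slc38a4 (lower) then parted too, which makes 7 genes and 3.

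**Figure D1:**
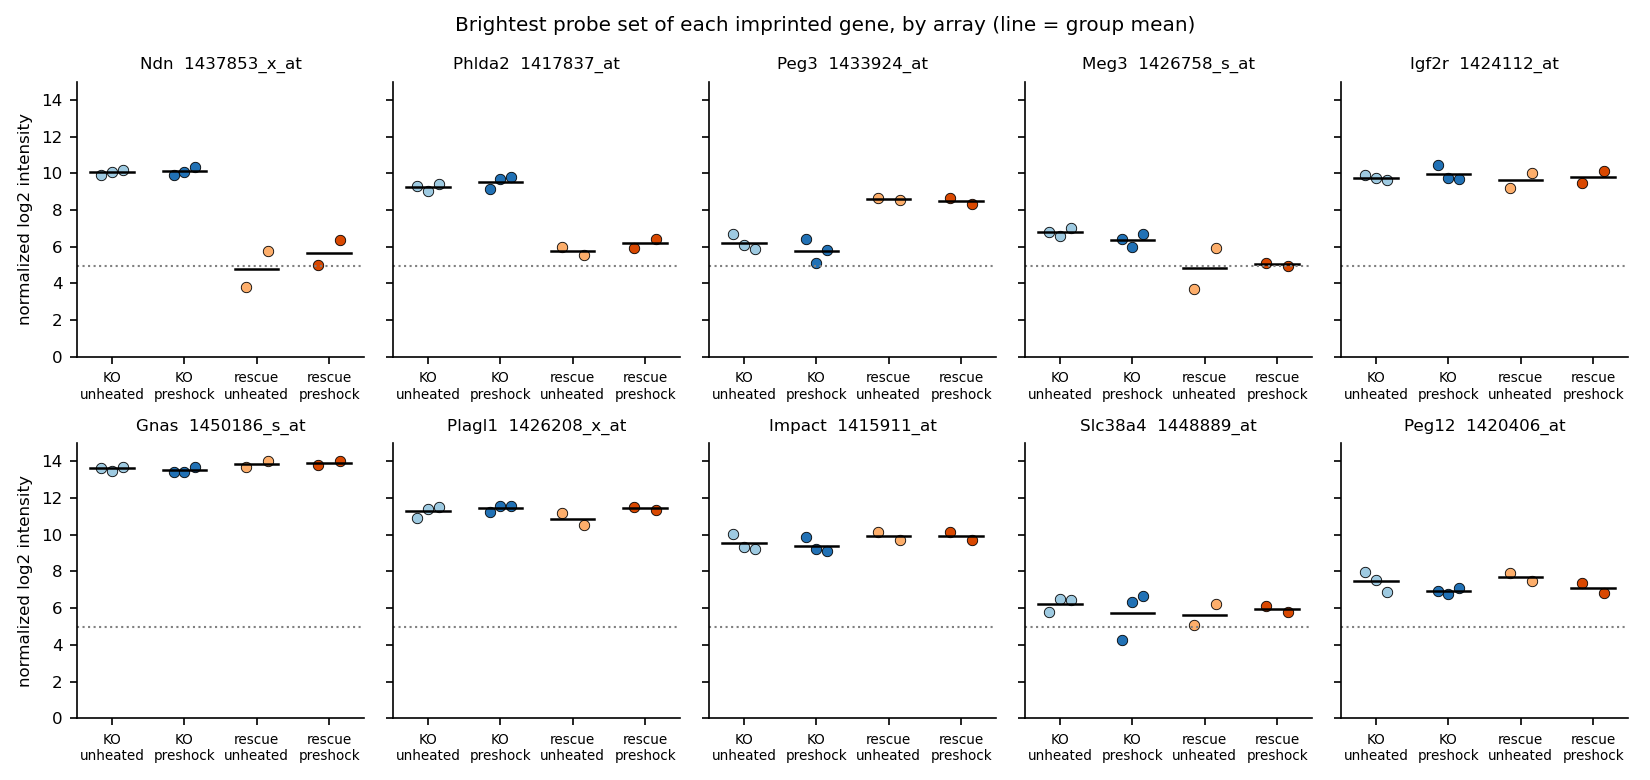
Normalized log2 intensity (vertical axis) of the probe set with the highest mean for each of the 10 genes, in each of the 10 arrays (points) by group, with the group mean as a bar; the dotted line is the lowest mean fitted, 4.97. Ndn and Phlda2 stand near 9 to 10 in KO arrays and under 6.5 in rescue arrays, and Peg3 runs the other way. Igf2r, Plagl1, Impact, Peg12 and the Slc38a4 probe set shown, 1448889_at, overlap.

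Ndn, a paternally expressed gene of the Prader-Willi region that encodes necdin, a MAGE-family protein restraining cell growth, showed the widest separation. Its probe set 1455792_x_at read 10.66, 10.49 and 10.47 in the unheated KO arrays 6, 12 and 14, and 10.53, 10.47 and 10.56 in the preshocked arrays 5, 11 and 13. In the rescue line it read 1.64 and 0.13 unheated (arrays 32 and 44) and 2.80 and 0.17 preshocked (31 and 43). The KO arrays spanned 0.189 and the rescue arrays all lay at the lower end of the scale, 7.66 below the nearest KO array and below the level at which probe sets were fitted. As deposited, the same intensities were 1397 to 1582 in KO and 0.442 to 5.02 in rescue. The line difference was -9.65 ± 0.71 (SE) unheated and -9.03 ± 0.71 preshocked, the lowest value of all 27022 probe sets in both states while values are only raised to 1. With values raised to 16, Ndn 1435382_at was lower still (-6.75 unheated and -6.82 preshocked, against -6.54 and -6.52).

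The other fitted Ndn probe sets had the same pattern with smaller gaps. Probe set 1415923_at lay between 9.63 and 10.83 in KO arrays and between 0.48 and 4.80 in rescue arrays, a difference of -8.79 ± 0.57 unheated and -5.78 ± 0.57 preshocked. Probe set 1435382_at lay between 10.36 and 11.32 in KO and between 1.05 and 4.20 in rescue, with -7.94 ± 0.87 unheated. The nearest arrays of the lines were 4.83 apart in the former and 6.16 apart in the latter. Probe set 1435383_x_at gave -7.84 ± 1.04 unheated, and 1437853_x_at, whose rescue arrays were the brightest of the 5 (3.80 to 6.37), gave -5.26 ± 0.58. In unheated arrays these 5 held the ranks 1, 2, 3, 4 and 7 from the lowest.

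The size of the Ndn difference is set by how low the rescue readings are allowed to go. With values under 16 raised to 16 before normalization, 1455792_x_at gave -6.54 unheated and the 5 probe sets lay between -6.75 and -5.16, so the direction and the separation stood while the size shrank. Without arrays 5 and 6 the difference of 1455792_x_at was -9.76. Of the 3 dim Ndn probe sets, 1438939_x_at (3.03 to 6.46 in KO, 0.41 to 1.62 in rescue) and 1438978_x_at (4.50 to 5.96 and 0.18 to 4.24) also separated the lines, and 1456575_at (2.67 to 5.68 and 0.67 to 5.10) did not. Every Ndn probe set but 1456575_at was therefore lower in every rescue array than in every KO array, and that one was at the lower end in both lines. Markers of neural cells, where Ndn is well known to be expressed, summed to 3513 to 4105 in KO arrays and 3010 to 4532 in rescue arrays, which overlap. Such a sum on the linear scale weighs bright markers most. The part of neural cells in the Ndn difference was not tested.

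Peg12, also called Frat3, is paternally expressed and lies in the same region of chromosome 7 as Ndn. Its single probe set 1420406_at read 7.997, 7.56 and 6.86 in unheated KO arrays, 6.94, 6.76 and 7.11 in preshocked KO arrays, 7.92 and 7.51 in unheated rescue arrays, and 7.39 and 6.80 in preshocked rescue arrays. The lines overlapped, with differences of 0.24 ± 0.35 unheated and 0.16 ± 0.35 preshocked. This neighbour of Ndn thus did not separate the lines.

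Phlda2, a maternally expressed gene of the Kcnq1 cluster that limits placental growth, was also lower in rescue arrays. Its single probe set 1417837_at read 9.32, 9.06 and 9.43 in unheated KO arrays, 9.12, 9.68 and 9.79 in preshocked KO arrays, 5.96 and 5.54 in unheated rescue arrays, and 5.94 and 6.41 in preshocked rescue arrays. All 4 rescue arrays remained above the fitting level, so unlike Ndn both ends of this difference were measured within the fitted range. The deposited intensities were 555 to 815 in KO arrays and 37.9 to 71.7 in rescue arrays. The difference was -3.52 ± 0.27 unheated and -3.36 ± 0.27 preshocked, rank 18 from the lowest in both states, and raising low values to 16 left it at -3.52. Of 5 trophoblast markers, 3 were on the array and 1, Cdx2, passed the filter. Its probe set 1422075_at was 6.83 to 8.54 in KO and 5.16 to 6.27 in rescue, and the 3 markers summed to 147 to 410 in KO and 45.2 to 123 in rescue on the linear scale, with Eomes and Tpbpa below the filter in both. Their part in the Phlda2 difference was not tested.

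**Figure D2:**
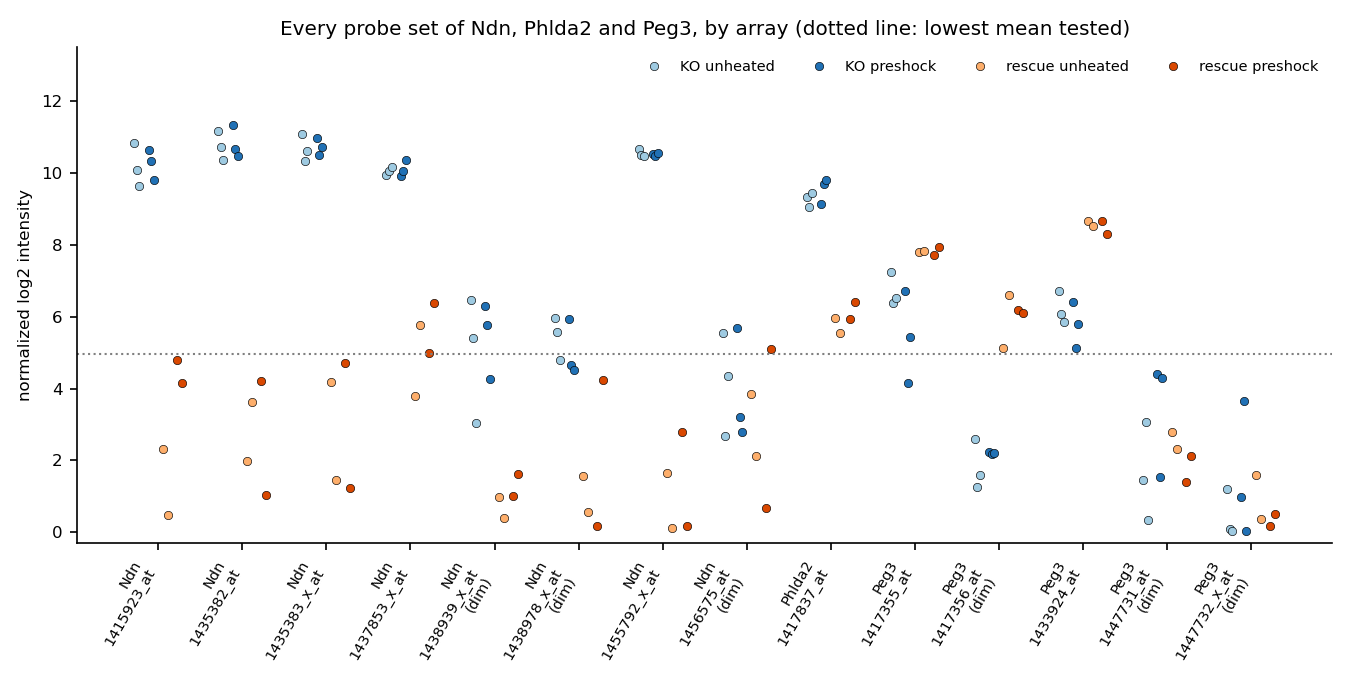
Normalized log2 intensity (vertical axis) of every probe set of Ndn, Phlda2 and Peg3 (horizontal axis) in each array, coloured by group; the dotted line is the lowest mean fitted and probe sets marked dim were not fitted. All Ndn probe sets but 1456575_at, and Phlda2, lie lower in all 4 rescue arrays than in all 6 KO arrays, and 3 of 5 Peg3 probe sets lie higher.

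Peg3, a paternally expressed zinc finger gene studied for its part in growth and cell death signalling, was higher in the rescue line. Probe set 1433924_at read 6.71, 6.07 and 5.86 in unheated KO arrays, 6.42, 5.12 and 5.81 in preshocked KO arrays, 8.65 and 8.52 in unheated rescue arrays, and 8.66 and 8.31 in preshocked rescue arrays. The rescue arrays spanned 0.347 and the KO arrays 1.59 log2 units, and arrays 6 and 5 were the highest of their KO groups. The deposited intensities were 35.4 to 158 in KO and 314 to 399 in rescue. The difference was 2.37 ± 0.39 unheated and 2.70 ± 0.39 preshocked, ranks 62 and 21 from the highest. Without arrays 5 and 6 it was 2.75 unheated and 3.16 preshocked.

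Probe set 1417355_at of Peg3 lay between 4.16 and 7.25 in KO arrays and between 7.71 and 7.94 in rescue arrays. The gap between the nearest arrays was 0.461, with array 6 the nearest KO array. The difference was 1.09 ± 0.64 unheated and 2.39 ± 0.64 preshocked. Under the deposited scaling the lines overlapped here, since KO array 6 stood at 209.48 and rescue arrays 31 and 32 at 181.12 and 209.03. The dim probe set 1417356_at separated the lines as well, at 1.25 to 2.60 in KO and 5.12 to 6.61 in rescue. The remaining 2, 1447731_at and 1447732_x_at, were dim in both lines and overlapped. No other gene of the Peg3 cluster on the array passed the level filter.

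Meg3, a maternally expressed long non-coding RNA of the Dlk1 cluster, gave no single picture over its 11 probe sets, of which 6 were fitted. Probe set 1426758_s_at, the brightest, read 6.82, 6.57 and 7.01 in unheated KO arrays, 6.42, 5.96 and 6.69 in preshocked KO arrays, 3.70 and 5.94 in unheated rescue arrays, and 5.13 and 4.97 in preshocked rescue arrays. The lines only just parted, since rescue array 44 (5.94) lay 0.0258 below KO array 11 (5.96). The difference of -1.98 ± 0.57 unheated rested on array 32: without it the value was -0.85, and without array 44 it was -3.10. The preshocked difference was -1.31 ± 0.57.

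In the other 5 fitted Meg3 probe sets the arrays of the lines overlapped. Their unheated differences ran from -1.47 (1429256_at) to 1.06 (1429257_at). Probe set 1436057_at was -0.88 ± 0.24 unheated and 1.08 ± 0.24 preshocked, and 1429257_at was 1.06 ± 0.97 and -1.15 ± 0.97. These 2 changed sign between the states, in opposite ways. The 5 dim Meg3 probe sets overlapped too.

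Slc38a4, a paternally expressed amino acid transporter gene, was split between its 2 probe sets. Probe set 1428111_at read 5.57, 6.33 and 5.80 in unheated KO arrays, 5.96, 6.83 and 6.14 in preshocked KO arrays, 3.57 and 3.94 in unheated rescue arrays, and 5.29 and 3.30 in preshocked rescue arrays. Every rescue array was below every KO array, though array 31 came within 0.274 of array 6. The difference was -2.15 ± 0.56 unheated and -2.01 ± 0.56 preshocked, and the latter was -2.996 without array 31 and -1.004 without array 43. Probe set 1448889_at overlapped, at 4.29 to 6.64 in KO and 5.08 to 6.21 in rescue, with -0.60 ± 0.68 unheated and 0.22 ± 0.68 preshocked.

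Gnas encodes the stimulatory G protein alpha subunit from a complex locus with maternal, paternal and biparental transcripts. Its probe set 1450186_s_at was the brightest of the 41, at 13.67, 13.46 and 13.71 in unheated KO arrays, 13.43, 13.41 and 13.70 in preshocked KO arrays, 13.71 and 13.999 in unheated rescue arrays, and 13.82 and 14.03 in preshocked rescue arrays. The lines parted by 0.00221, between KO array 14 and rescue array 32, and the differences were 0.24 ± 0.19 unheated and 0.41 ± 0.19 preshocked. With median centring they were 0.94 and 1.03. Probe set 1443375_at gave 0.95 ± 0.35 unheated and -0.01 ± 0.35 preshocked, and 1453413_at gave -0.31 ± 0.22 and -0.88 ± 0.22, with overlap across the 10 arrays in both. The 3 therefore had no common direction, and the 2 dim probe sets overlapped.

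Igf2r, a maternally expressed receptor that clears insulin-like growth factor 2, overlapped in all groups. Probe set 1424112_at read 9.92, 9.72 and 9.65 in unheated KO arrays, 10.46, 9.76 and 9.67 in preshocked KO arrays, 9.22 and 10.02 in unheated rescue arrays, and 9.47 and 10.11 in preshocked rescue arrays. Its differences were -0.14 ± 0.34 and -0.18 ± 0.34, and those of 1424111_at were -0.16 ± 0.33 and -0.11 ± 0.33. The groups overlapped throughout and each difference was smaller than its SE. With median centring both unheated values turned to 0.41, beside a median of 0.48 over all probe sets.

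Plagl1, a paternally expressed zinc finger gene that restrains proliferation, had probe sets that went different ways. The bright 1426208_x_at lay between 10.93 and 11.58 in KO arrays and between 10.53 and 11.53 in rescue arrays, with -0.42 ± 0.26 unheated and -0.01 ± 0.26 preshocked, and 0.17 and 0.49 with median centring. Probe set 1450533_a_at was 3.47 to 6.40 in KO and 5.84 to 6.79 in rescue, with 1.67 ± 0.78 and 1.60 ± 0.78, and KO array 11 was the one that overlapped. The dim 1438588_at was 5.06 to 6.15 in KO and 1.55 to 5.08 in rescue, where rescue array 43 alone reached the KO range. For both of these the separation failed by 1 array, in opposite directions.

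Impact, a paternally expressed gene whose product inhibits the kinase GCN2, had 3 fitted probe sets, all above 0 in unheated arrays. Probe set 1415911_at read 10.02, 9.35 and 9.25 in unheated KO arrays, 9.90, 9.20 and 9.12 in preshocked KO arrays, 10.17 and 9.74 in unheated rescue arrays, and 10.16 and 9.73 in preshocked rescue arrays. Only KO arrays 6 and 5 reached the rescue range. The difference was 0.41 ± 0.34 unheated and 0.54 ± 0.34 preshocked, and those of 1446750_at and 1446751_s_at were 0.46 ± 0.59 and 0.93 ± 1.07 unheated. Without arrays 5 and 6 the unheated differences were 0.67, 0.02 and -0.09 in the same order. With median centring 1415911_at gave 0.98 unheated.

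**Figure D3:**
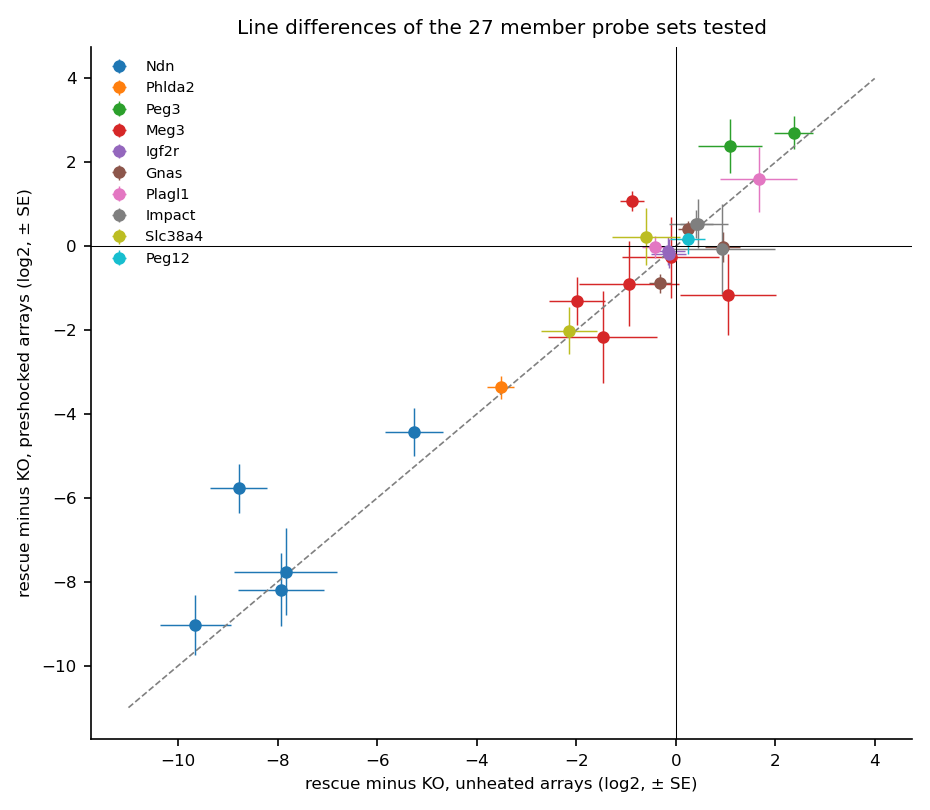
Rescue minus KO (log2) of the 27 fitted probe sets in unheated arrays (horizontal axis) and in preshocked arrays (vertical axis), coloured by gene, with bars of 1 SE and the line of equality dashed; both axes use different arrays. The 5 Ndn probe sets lie between -9.65 and -5.26 on the horizontal axis, Phlda2 at -3.52, both Peg3 probe sets above 0 on both axes, and most others within 2 of 0.

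The order of levels over the groups could be read for few genes. For Phlda2 both KO groups (means 9.27 ± 0.19 SD and 9.53 ± 0.36, n = 3 each) stood above both rescue groups (5.75 ± 0.30 and 6.18 ± 0.33, n = 2 each), and neighbours within a line overlapped. For Peg3 1433924_at both rescue groups (8.58 ± 0.09 and 8.48 ± 0.25, n = 2) stood above both KO groups (6.21 ± 0.44 and 5.78 ± 0.65, n = 3), again with overlap within a line.

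The response to preshock is not the contrast the genes were chosen on, so it was tested, over all probe sets. It uses the same arrays as that contrast, and its tests are not independent of the choice. Preshock changed 131 probe sets in the KO line (0.485%), 95 up and 36 down, and 23 in the rescue line (0.0851%), 22 up and 1 down. Over both lines, as the mean of the 2 responses, it changed 395 (1.46%), 240 up and 155 down. With median centring the counts in the KO line and over both lines were 37, of which 35 up, and 114, of which 96 up, and under the deposited scaling the KO count was 69, of which 60 up. No probe set of the 10 imprinted genes was among them. The difference between the responses of the lines was called for 0 probe sets (0%) of the whole table, with 375 at an unadjusted p under 0.05, and for 0 of the 27. At an unadjusted p under 0.05, limma's test had 3 of the 27 in the KO line, 2 in the rescue line, 4 over both lines and 2 for the difference (11.1%, 7.41%, 14.8% and 7.41%), beside 9.18%, 5.93%, 12.2% and 1.39% of all probe sets. With an intensity trend and robust variances limma called 0 of the 27 in each. With adjoining label numbers as a block (5 with 6, 11 with 12, and so on) the counts over all probe sets were 259 in the KO line, 5 in the rescue line and 1615 over both, and 1 of the 27 was called over both lines.

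The median preshock response of the 27 was 0.07 in the KO line, 0.17 in the rescue line and 0.18 over both, beside -0.01 over all probe sets in each. Of the 27 values over both lines 16 were above 0 and 11 below. Nothing particular to the list is read from these medians.

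The single probe set called with the block was 1415923_at of Ndn over both lines. In the KO line its preshocked minus unheated pairs were -0.20, 0.22 and 0.18, and in the rescue line they were 2.49 and 3.68. The rise over both lines was 1.58 ± 0.41, with an adjusted p of 0.13 from limma without the block and 0.0334 with it. The 2 rescue pairs were the high ones, and there the gene read near the lower end (0.48 and 2.31 unheated, 4.15 and 4.80 preshocked). Over the 18 alternatives its adjusted p ran from 0.0334 to 0.912, with the call in 1, and with values under 16 raised to 16 the rise was 0.23. The other 4 fitted Ndn probe sets had responses over both lines of -0.06 to 0.48, and none of them passed the test with or without the block.

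Phlda2 responded by 0.26 ± 0.24 in the KO line and 0.43 ± 0.30 in the rescue line, with adjusted p of 0.944 and 1 (limma). Peg3 1433924_at responded by -0.43 ± 0.35 and -0.10 ± 0.43, with adjusted p of 0.907 and 1 (limma). Neither difference between the responses, 0.16 ± 0.39 for Phlda2 and 0.33 ± 0.56 for Peg3, passed the test. The largest response of the 27 in the KO line was that of 1428764_at of Meg3, 1.76 ± 0.87, with pairs of 1.77, -0.40 and 3.92, at an adjusted p of 0.639 (limma). In the rescue line it was 1.60 ± 1.06, with pairs of 1.97 and 1.23, and over both lines 1.68 ± 0.69, again the largest, at an adjusted p of 0.371 (limma). The KO value ran from 0.69 to 2.48 over its alternatives. The lowest response in the KO line was that of 1417355_at of Peg3, -1.28 ± 0.57, where all 3 pairs were below 0 (-0.53, -2.21 and -1.09), at an adjusted p of 0.571 (limma). Probe set 1453413_at of Gnas, whose KO groups did not overlap, was 0.67 ± 0.20 in the KO line, with all 3 pairs above 0, at an adjusted p of 0.29 (limma). None of these passed the test with or without the block.

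**Figure D4:**
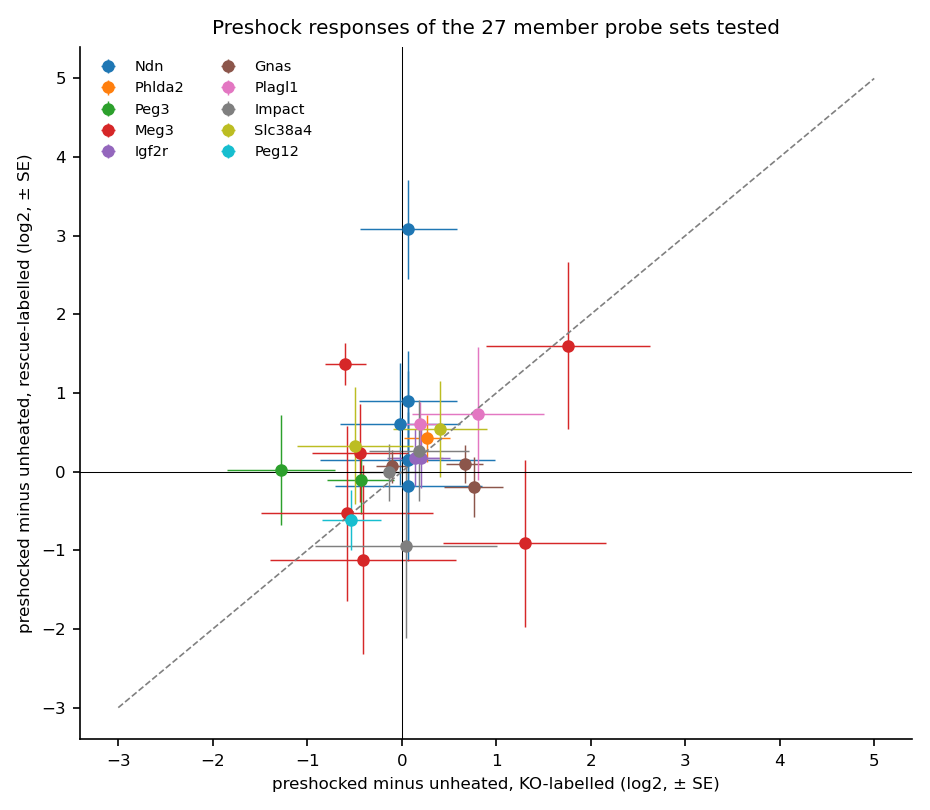
Preshocked minus unheated (log2) of the 27 fitted probe sets in the KO line (horizontal axis, 3 against 3 arrays) and in the rescue line (vertical axis, 2 against 2), coloured by gene, with bars of 1 SE and the line of equality dashed. Most values lie within 1 of 0 on both axes, and Ndn 1415923_at stands out at 3.08 in the rescue line.

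Other imprinted genes were read from a list of 62, of which 51 were on the array and 29 had a fitted probe set (52 of 106 probe sets). None of the 52 was called in any of the 6 comparisons by limma at an adjusted p under 0.05, with 10 (19.2%) at an unadjusted p under 0.05 between the unheated lines and 2 (3.85%) between the preshocked lines, beside 9.93% and 10.2% of all probe sets. The median unheated line difference was -0.06, with 23 above 0 and 29 below, beside 0.03 over all probe sets. Of the 52, 4 separated the lines after quantile normalization, all lower in rescue, beside 3.98% of all probe sets. They were 1452013_at of Atp10a, 1416330_at of Cd81, 1424121_at of Commd1 and 1434917_at of Cobl, named here after their values were seen. The differences of Atp10a and Cd81 were of a size that has no settled sign between scalings. Whether the 4 stayed apart under other scalings is not given here. Under the block 2 of the 52 were called for preshock over both lines, beside 1615 of all 27022 probe sets. Likewise named afterwards, they were 1458161_at of Kcnq1ot1, the long non-coding RNA of the Phlda2 cluster, and 1427661_a_at of Tssc4. The former was 0.75 ± 0.41, with an adjusted p (limma) of 0.561 without the block and 0.038 with it. The latter was -0.51 ± 0.16, with 0.217 and 0.0356. Over their 18 alternatives these adjusted p ran up to 0.884 and 0.681.

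Neighbours of Ndn and Phlda2 had unheated line differences nearer 0 than those genes, and neighbours of Meg3 lay within the range of its probe sets. Because the listed genes were chosen on the line contrast, this order follows largely from the choice, and nothing about the clusters is read from it. Magel2, Rian and Dlk1 are named after their values were seen. In the Snrpn-Ndn cluster 11 probe sets of 3 genes were fitted and the median unheated difference was -0.16. Magel2, the MAGE-family gene next to Ndn, was -1.33 ± 0.50 unheated and -0.56 preshocked, with an adjusted p of 0.457 (limma) for the former and overlapping arrays. Ube3a, the ubiquitin ligase gene of the region, had the widest value there, -1.72 ± 0.72 in 1431224_at (adjusted p 0.485, limma). That value rested on array 32 (3.58, against 6.48 in array 44), and was -0.27 without it and -3.17 without array 44, while its brightest probe set 1416680_at was 0.17 ± 0.47. Atp10a 1452013_at of the same cluster was -0.51 ± 0.20 and Cd81 1416330_at, in the Phlda2 cluster, was -0.46 ± 0.18. Both were near the 0.44 by which median centring raised the unheated median over all probe sets, so their sign is not settled. Around Phlda2, 8 probe sets of 6 genes lay between -1.04 (Tspan32) and 0.56, with a median of 0.00, and Cdkn1c, the cell cycle inhibitor of that cluster, was below the filter. Around Meg3 all 3 fitted probe sets were below 0, from -1.66 ± 1.01 for Mirg to -0.20 for Dlk1, with -0.65 for Rian, and none was called.

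The remaining clusters gave single large values, none of them called. Cobl 1434917_at, of the Grb10 cluster, was -2.22 ± 0.34 unheated and -0.98 ± 0.34 preshocked, with an adjusted p of 0.106 (limma) in unheated arrays. Under the deposited scaling it was called, at 0.0145, the lowest of 17 alternatives, of which the others did not call it. Mest, a paternally expressed hydrolase gene, was -1.75 ± 0.73 unheated in 1423294_at, a value carried by array 44 (2.90, against 5.50 in array 32), and was -0.44 without array 44 and -3.02 without array 32. H13 was 1.55 ± 0.88, Pon2 1.17 ± 0.48 and Airn, the antisense RNA over Igf2r, 1.04 ± 1.12. Igf2, the growth factor that Igf2r clears, was 0.03 ± 0.65 in its 1 fitted probe set, and lay at 4.06 to 6.10 in KO and 4.02 to 5.83 in rescue, near the lower end.

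**Figure D5:**
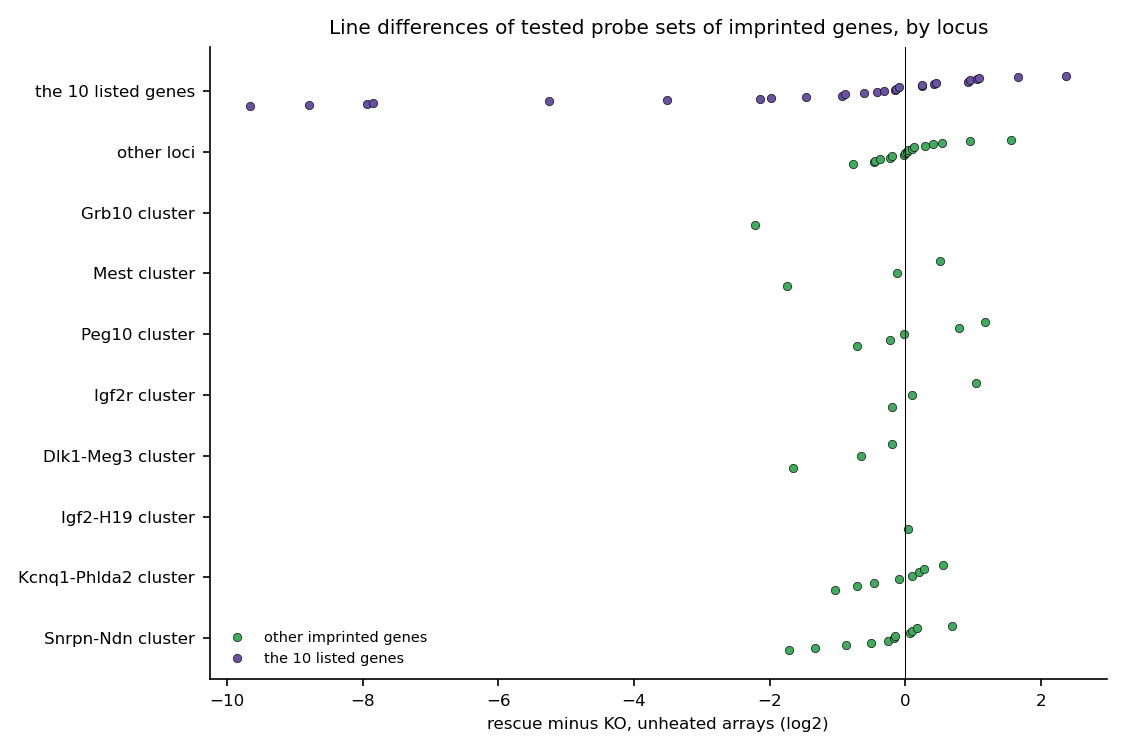
Rescue minus KO in unheated arrays (log2, horizontal axis) of each fitted probe set of imprinted genes, by cluster (vertical axis), with the 10 genes described on top and the other listed imprinted genes below. The other genes lie between -2.22 and 1.55, and of the points plotted those below -3 belong to Ndn and Phlda2.

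Genes that write, keep or remove methylation marks, or maintain imprints, were read from a list of 14. Of these 13 were on the array and 10 had a fitted probe set (22 of 29 probe sets). The median unheated line difference was 0.18 (14 above 0, 8 below), beside 0.03 over all probe sets. Between the unheated lines 1 of the 22 was called, beside 20 (0.074%) of all 27022 probe sets. At an unadjusted p under 0.05, limma's test had 2 (9.09%), beside 9.93% of all. Of the 22, 2 separated the lines, 1 lower and 1 higher in rescue, beside 3.98% and 4.61% of all probe sets. The probe set called was 1424295_at of Dppa3, which protects maternal marks in the early embryo. Its difference was -2.96 ± 0.35 unheated at an adjusted p of 0.043 (limma). It read 6.02 ± 0.22 (SD, n = 3) in unheated KO arrays and 3.06 ± 0.24 (n = 2) in unheated rescue arrays. All 4 rescue arrays (2.89 to 4.80) lay below the fitting level of 4.97. The call did not hold with the block (adjusted p 0.181), and over the 16 alternatives in which it was fitted the adjusted p ran from 0.0152 to 0.181, with the call in 2. In preshocked arrays the difference was -0.99 ± 0.35 (adjusted p 0.43, limma). For preshock over both lines the block called 1 of the 22, beside 1615 of all 27022 probe sets. It was 1449042_at of Ctcf (-0.53 ± 0.41), the insulator protein gene. Its adjusted p (limma) was 0.0463 with the block, 0.768 without it and up to 0.966 over its alternatives.

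The 5 probe sets of other genes most like Ndn 1455792_x_at, by Pearson's r over the 10 arrays, were those of Mrpl39 (0.99), Sqor (0.987), Kitl (0.979), Sod2 (0.979) and Fez1 (0.978). With 6 arrays at one level and 4 at another, such an r describes the step between the lines and no more. Their mean steps differed widely, from 13.01 in KO to 11.96 in rescue for Mrpl39 to 8.52 and 3.90 for Fez1, a neuronal adaptor gene.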

How the data were processed

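RNA of 10 samples was labelled in a one-cycle protocol from 1.5 µg of total RNA and hybridised to 1 array each, per the labels. The authors deposited 1 linear intensity per probe set and array. How probes were summarised is not stated in the labels. The mean after trimming 2% at each end was 500.003 to 500.004 in every array. Genes were named from the platform annotation (34945 probe sets with 1 symbol, 932 with several, 9160 with none). Values below 1 (4935) were set to 1. Log2 values of all 45101 probe sets were quantile normalized because deposited log2 medians differed by up to 1.08. The 64 control probe sets were then dropped. The upper 60% by mean, 27022 probe sets, entered 1 limma model with a mean per group (limma 3.58.1, R 4.3.3, statmod 1.5.0). P-values were adjusted by Benjamini-Hochberg over all of them and called under 0.05. The fit was tested on simulated data.

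Members and lists were chosen with earlier results of these data known. Named are every probe set of the 10 genes, called probe sets of the other lists with the widest unheated line difference of each cluster, and the 5 probe sets most like Ndn; others are marked where named. Samples carry no shared replicate numbers. Deviations from group means correlated at 0.32 to 0.68 within adjoining label numbers, each array best with its neighbour, so these were treated as pairs in a block (consensus correlation 0.676). Alternatives were median centring, the deposited scaling, a floor of 16, no level filter or the upper 40%, an intensity trend with robust variances, the block, and leaving out arrays 5 and 6 or each array in turn. The precision of each value is limited by the 10 arrays, and no detection call was used.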

Additional observations from a re-analysis of the deposited data

Results flagged for a closer look

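In 3 of the 27 fitted probe sets (11.1%) every KO pair moved one way after preshock and every rescue pair the other, beside 4.09% of all fitted probe sets. Among the 14 not fitted, 1 did so, 1427789_s_at of Gnas. Meg3 1429257_at rose in the KO pairs (1.11, 1.01 and 1.78) and fell in the rescue pairs (-0.80 and -1.02), a difference of responses of -2.211 ± 1.37 (SE). Meg3 1436057_at did the reverse, at -0.49, -0.86 and -0.45 against 1.61 and 1.13, a difference of 1.967 ± 0.34. Gnas 1450186_s_at was at -0.24, -0.05 and -0.01 against 0.11 and 0.03, a difference of 0.1679 ± 0.27. None passed limma's test of the difference, with an adjusted p of 1 for each and 0.871, 0.871 and 0.947 with adjoining label numbers as a block. For Meg3 1436057_at the adjusted p was 0.451 at its lowest over 15 alternatives.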

How the results depend on the processing

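No line difference of a separated probe set and no called response reversed under the 18 alternatives. Counts of calls over all probe sets moved by over 1.5 times as follows. For preshock in the KO line (131) they were 37 with median centring, 69 under the deposited scaling, 27 with no level filter, 265 with the upper 40% and 259 with the replicate block. For preshock in the rescue line (23) they were 10 with median centring, 11 with no filter, 62 with the upper 40%, 62 with trend and robust variances, 5 with the block and 40 without arrays 5 and 6. Over both lines (395) they were 114, 107, 669 and 1615 with median centring, no filter, the upper 40% and the block. The difference of responses (0) was 3 with no filter. Between unheated lines (20) the counts were 34 under the deposited scaling, 12 with no filter, 37 with the upper 40%, 40 with trend and robust variances and 39 without arrays 5 and 6. Between preshocked lines (17) they were 11 with median centring, 32 with trend and robust variances, 6 with the block and 26 without arrays 5 and 6. The block called 1 of the 27 imprinted probe sets over both lines and changed no other call among them.

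Leaving out each array in turn gave 19 (without array 11) to 77 (without array 6) calls in the KO line, 3 (without 31) to 30 (without 6) in the rescue line and 109 (without 31) to 347 (without 5) over both. It gave 0 to 0 for the difference of responses, 0 (without 12) to 23 (without 44) between unheated lines and 0 (without 5, 11, 12 or 13) to 25 (without 43) between preshocked lines. Among the 27 probe sets it gave 0 to 0 calls in every preshock comparison, and 11 to 13 with no overlap between the lines, 13 without array 11. An arm left with 1 array was taken to vary like the other groups. With so few arrays the counts of calls are limited by the loss of any one of them, and the low end of the scale, where no background is given, limits the size of the Ndn differences. The cause of these shifts was not tested.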
